A study of Homo sapiens with 18 samples.

Results

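The genes described here carry a symbol of the form ZNF followed by digits only and lie on any chromosome but 19 in GRCh38. They were selected on their mean level over all 18 libraries, which had to reach 1 CPM (the count as a share of the library's total, scaled to a common total). Of 477 ZNF symbols in the files, 236 lay outside chromosome 19, and 202 of these reached the minimum. All 202 passed the filter on low counts of the test. The other 34 did not reach 1 CPM, and 15 of them had 0 counts in every library. Just below the minimum stood ZNF410 at 0.727 CPM, ZNF485 at 0.733, ZNF695 at 0.868 and ZNF879 at 0.9998. Just above it stood ZNF334 at 1.06, ZNF23 at 1.14, ZNF707 at 1.15 and ZNF501 at 1.28 CPM.

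RNA was measured in hTERT RPE-1, a human retinal pigment epithelial line immortalised with telomerase. All cells had been grown in 10% serum and starved for 48 h in 0.1% serum, and carried the cell cycle label G0/G1. RNA was collected at time points 0, 20 and 40 of a transcription block with 10 µM triptolide, which acts on the XPB subunit of TFIIH. One arm had first received 50 µM etoposide, a poison of topoisomerase II, for 30 min, and the other, labelled as having no etoposide, is named DMSO in the sample titles. Each of the 6 groups of arm and time point holds 3 replicates, numbered 1 to 3 in the titles. The labels give no unit for the time points and do not say whether triptolide was already present at 0. Counts are relative within a library, so a faster loss of these RNAs and a slower loss of the rest cannot be told apart, nor can fewer cells with a transcript and less of it per cell.

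Most ZNF genes encode proteins with C2H2 zinc fingers, small folds held by a zinc ion that mostly read DNA. Many carry a KRAB domain, which recruits the scaffold protein TRIM28 and with it histone methyltransferases and heterochromatin proteins, and silence transposable elements. Others lack that domain and work as activators, as parts of chromatin complexes, or on RNA and ribosomes. Zinc finger transcription factors are among the gene classes known for short-lived messenger RNA, whose turnover becomes visible when transcription is blocked.

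Promoters are shown for 3 genes that edgeR called lower at 40 with the replicate block described below, to show the bases at their starts. Each run holds the 150 bases before the RefSeq start (GRCh38.p14), 5′ to 3′ on the gene's strand. Capitals mark a match to the ETS-type motif CCGGAAG, read on either strand.
ZNF669 (chr1:247104357-247104506, minus strand): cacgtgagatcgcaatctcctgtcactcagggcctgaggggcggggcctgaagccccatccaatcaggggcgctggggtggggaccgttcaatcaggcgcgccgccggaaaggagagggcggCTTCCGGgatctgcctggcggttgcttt
ZNF281 (chr1:200410037-200410186, minus strand): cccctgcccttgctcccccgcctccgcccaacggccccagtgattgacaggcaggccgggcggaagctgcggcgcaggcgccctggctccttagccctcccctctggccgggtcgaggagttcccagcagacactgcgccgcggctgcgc
ZNF398 (chr7:149126258-149126407, plus strand): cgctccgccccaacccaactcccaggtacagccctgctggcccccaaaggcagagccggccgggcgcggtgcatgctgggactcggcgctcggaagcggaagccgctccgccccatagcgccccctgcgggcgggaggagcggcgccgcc
In ZNF669 the match lies on the opposite strand, from 28 to 22 bases before the start, and the runs of ZNF281 and ZNF398 hold none. The GC content of the 3 runs was 66.7%, 74.7% and 76.7%, with 12, 14 and 18 CG dinucleotides, in the order printed.

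RefSeq windows from 250 bases before to 50 bases after the start were matched for 172 of the 202 genes. CCGGAAG stood on either strand in 63 of them (36.6%). The share was 41.8% among 165 ZNF genes of chromosome 19, 19.7% among 9702 protein-coding genes with a mean of at least 1 CPM, and 14.2% among all 15246 protein-coding genes with a window. The TATA box TATAAA was in 5.81% of the 172 windows against 5.38% of those of the expressed genes. The NRF1-type motif GCGCATGC was in 6.40% against 5.41%, and the cyclic AMP element TGACGTCA in 4.65% against 3.26%. The YY1-type motif AAGATGGCG was in 5 windows (2.91%) against 4.07%. The ZNF143-type motif ACTACAATT was in 4 windows (2.33%) against 0.711%, and in 2.42% of those of the ZNF genes of chromosome 19. All were read on either strand, and shares that rest on so few windows are imprecise. The median GC content of the windows was 63.0%, against 65.3% for those of the expressed genes. A match describes letters and not a bound site.

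The 202 genes lay on 20 chromosomes, with 28 on chromosome 7, 27 on chromosome 16, 17 on chromosome 1, 15 on chromosome 3 and 13 on chromosome 8. A coding transcript was matched in GENCODE release 29 for 200 of them, and 1 gene is a pseudogene. Of the 200, 80 (40.0%) encoded a KRAB A box by a sequence pattern, against 127 of 183 (69.4%) among ZNF genes of chromosome 19 at the same minimum. The median number of fingers by pattern was 9, against 12 on chromosome 19, and ZNF462 had the most at 33. No finger matched the pattern in 9 genes, which were ZNF185, ZNF330, ZNF365, ZNF451, ZNF487, ZNF503, ZNF703, ZNF839 and ZNF862. These counts describe a single coding transcript per gene, chosen by its rank in the annotation and only then by length, and are no measurement of protein.

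The mean level ran from 1.06 to 250 CPM, with a median of 11.5 CPM. ZNF664 was highest at 250 CPM, followed by ZNF207 (179 CPM), ZNF384 (100), ZNF638 (88.8), ZNF532 (80.0) and ZNF703 (66.9). Per kb of exon, the scale on which genes can be compared, the median was 2.06 CPM per kb. On that scale the order was ZNF664 (39.4 CPM per kb), ZNF703 (20.0), ZNF622 (20.0), ZNF384 (19.4), ZNF768 (15.6), ZNF593 (12.8), ZNF32 (12.4), ZNF330 (11.7), ZNF207 (11.3) and ZNF598 (11.0). Exons of other genes on the opposite strand cover ZNF593 wholly, ZNF384 to 31.9% and ZNF32 to 38.6%. The strand setting of the counting is not stated in the sources used, so their levels may hold reads of the other gene.

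Library totals lay between 7957691 and 11580219 counts, which puts 3 counts at 0.259 to 0.377 CPM. Of the retinal pigment epithelium markers 8 of 14 had a mean of at least 1 CPM and DCT had 0 counts. The summed level of the 14 was 988 to 3640 CPM over the libraries, highest in the library with BEST1 at 2452 CPM. The highest means on the list were those of the keratins KRT8 (697 CPM) and KRT18 (655). RPE65, LRAT, RLBP1, TYR and TYRP1 had means below 1 CPM (0.152, 0.294, 0.843, 0.0115 and 0.488). Of fibroblast markers 4 of 7 reached a mean of 1 CPM (273 to 447 CPM summed), and of endothelial markers 1 of 4 (PECAM1, 0.754 to 4.37 CPM for the list). Of other epithelial and blood markers 0 of 6 and 0 of 7 did (at most 1.46 and 1.85 CPM). DMSO replicate 2 of time point 0 stood apart, with 1.42% of its counts on genes typed as antisense against 0.217% to 0.253% elsewhere, and with the pigment epithelium gene BEST1 at 2452 CPM against 0.522 to 18.4 in the other libraries. The part of this in the results was not tested beyond leaving the library out. Libraries with the same number also shared deviations from their groups, with a correlation of 0.359 to 0.911 in 45 of 45 pairs, so a fit with the replicate number as a block is given beside the fit without it.

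The 202 genes together held 0.394% ± 0.016 of the counts at 0 and 0.364% ± 0.031 at 40 in the DMSO arm, and 0.414% ± 0.024 and 0.362% ± 0.017 in the etoposide arm (SD, n = 3). In DMSO replicates 1, 2 and 3 the share was 0.386%, 0.382% and 0.412% at 0, 0.407%, 0.362% and 0.4001% at 20, and 0.334%, 0.360% and 0.396% at 40. In the same order with etoposide it was 0.405%, 0.396% and 0.441% at 0, 0.372%, 0.391% and 0.405% at 20, and 0.352%, 0.353% and 0.382% at 40. It was lower at 40 than at 0 within each replicate number of both arms. The groups at 0 and 40 did not overlap with etoposide and overlapped with DMSO, where replicate 3 stood highest at both times.

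**Figure D1:**
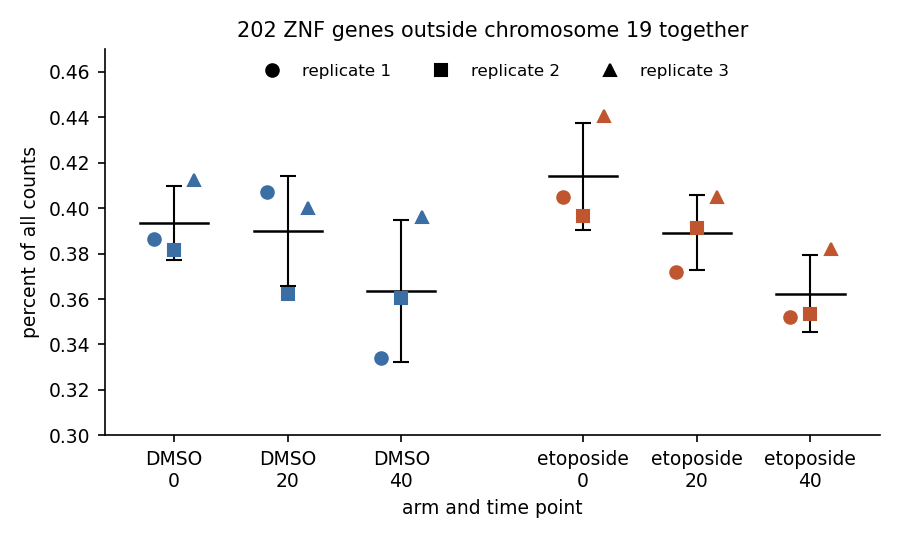
Share of all counts (percent, axis not starting at 0) held by the 202 genes together, by arm and time point. Each point is a library (shape by replicate number), the bar the mean and the whiskers the SD of 3 libraries. In the etoposide arm all 3 libraries of time point 40 (0.352% to 0.382%) lie below all 3 of time point 0 (0.396% to 0.441%).

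From 0 to 40 the log2 change of the 202 genes in DMSO cells had a median of −0.10, with 146 of 202 negative, against 0.01 over the 14186 genes tested, of which 48.68% were negative. With etoposide the median was −0.20, with 163 of 202 negative, against 0.00 and 49.25%. Within replicate numbers 1, 2 and 3 the medians were −0.18, −0.15 and −0.08 with DMSO, and −0.20, −0.13 and −0.20 with etoposide (log2 of CPM with a pseudocount of 0.5). Without DMSO replicate 2 of time point 0 the DMSO median was −0.12. A log2 change of −0.5 or lower was found in 33 of the 202 genes (16.3%) with DMSO and in 35 (17.3%) with etoposide, against 6.75% and 5.51% of all genes tested. A change of 0.5 or higher was found in 3 and 0, against 2.44% and 2.31% of all genes.

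**Figure D2:**
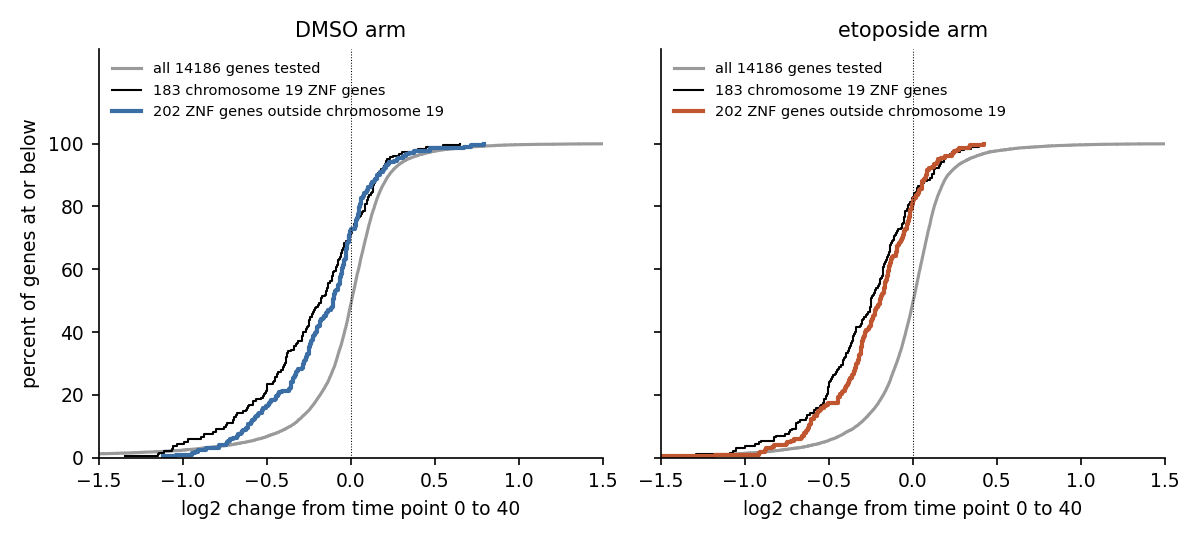
Cumulative percent of genes at or below each log2 change from time point 0 to 40, in the DMSO arm (left) and the etoposide arm (right), for the 202 genes (coloured), 183 ZNF genes of chromosome 19 (black) and all 14186 genes tested (grey). The coloured curves lie to the left of grey over most of their range, with medians of −0.10 and −0.20 against 0.01 and 0.00.

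Tests of single genes called few of them. With edgeR's quasi-likelihood test and Benjamini-Hochberg adjustment over all genes, 0 of the 202 were called in either arm without the block at an adjusted p under 0.05. In the DMSO arm 0.423% of all genes were called lower and 0.0% higher, and in the etoposide arm 0.204% and 0.0%. At an unadjusted p under 0.05 there were 29 of the 202 with DMSO (14.4%, against 4.06% of all genes) and 26 with etoposide (12.9%, against 3.04%). DESeq2 called 4 of the 202 with DMSO (1.98%, against 0.765% of all genes) and 1 with etoposide (0.495%, against 0.482%, so that its etoposide count is at the background). limma-voom called 0 and 0, against 0.36% and 0.219% of all genes. With the block, edgeR called 10 of the 202 lower with DMSO (4.95%, where 1.21% of all genes were called lower and 0.0141% higher) and 0 higher. With etoposide it called 4 lower (1.98%, where 1.01% of all genes were called lower and 0.0% higher) and 0 higher, and these 4 are among the 10.

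As a count that needs no fit, all 3 libraries of time point 40 lay below all 3 of time point 0 for 30 of the 202 genes with DMSO (14.9%, where 4.63% of all genes did) and for 46 with etoposide (22.8%, where 5.85% did). They lay above for 5 with DMSO (ZNF207, ZNF391, ZNF717, ZNF782 and ZNF852), where 1.59% of all genes did, and for 0 with etoposide, where 1.97% did. In both arms 15 of the 202 lay below (7.43%, against 1.78% of all genes). They were ZNF184, ZNF217, ZNF282, ZNF319, ZNF322, ZNF397, ZNF398, ZNF408, ZNF503, ZNF669, ZNF689, ZNF696, ZNF697, ZNF703 and ZNF830. The arms share no library.

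Of the 8 genes with developmental or signalling roles, 2 fell with DMSO in the edgeR fit with the block, and 0 passed with etoposide. Of all genes, 1.21% with DMSO and 1.01% with etoposide were called lower in that fit. Neither this nor the other role lists below were tested against those shares. ZNF503 and ZNF703, the 2 that fell, encode NET-family repressors of development, and ZNF703 is amplified in luminal breast cancers. ZNF503 (ENSG00000165655, chr10:75397830-75401906, minus strand) stood at 30.7, 33.00 and 39.5 CPM at 0, 23.3, 24.2 and 39.3 at 20, and 10.6, 16.7 and 20.1 at 40 in DMSO replicates 1, 2 and 3. With etoposide, ZNF503 stood at 34.4, 24.1 and 37.5 CPM at 0, 33.8, 20.4 and 36.2 at 20, and 20.2, 12.97 and 22.5 at 40 in the same order. All libraries of 40 lay below all of 0 in both arms. For ZNF503 the log2 change from 0 to 40 was −1.12 (SE 0.29, adjusted p = 0.202 with edgeR, and 0.00116 with the block) with DMSO. With etoposide, ZNF503 had −0.75 (SE 0.29, adjusted p = 1.0 with edgeR, and 0.052 with the block). Exons on the opposite strand cover 11.6% of it. ZNF703 (ENSG00000183779, chr8:37695751-37700021, plus strand) stood at 72.6, 77.1 and 94.98 CPM at 0, 57.9, 70.8 and 95.6 at 20, and 36.9, 35.01 and 62.4 at 40 in DMSO replicates 1, 2 and 3. With etoposide, ZNF703 stood at 76.1, 66.4 and 95.4 CPM at 0, 69.6, 42.2 and 98.9 at 20, and 47.04, 51.05 and 54.9 at 40 in the same order. Here too the libraries of 0 and 40 did not overlap in either arm. For ZNF703 the log2 change from 0 to 40 was −0.86 (SE 0.28, adjusted p = 0.497 with edgeR, and 0.00228 with the block) with DMSO. With etoposide, ZNF703 had −0.60 (SE 0.28, adjusted p = 1.0 with edgeR, and 0.0992 with the block). The other 6 ranged from ZNF697 at −0.23 to ZNF704 at 0.08 with DMSO, and from ZNF469 at −0.45 to ZNF704 at 0.42 with etoposide (log2 change). ZNF609, with a role in muscle and neural differentiation, had −0.04 and −0.24.

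**Figure D3:**
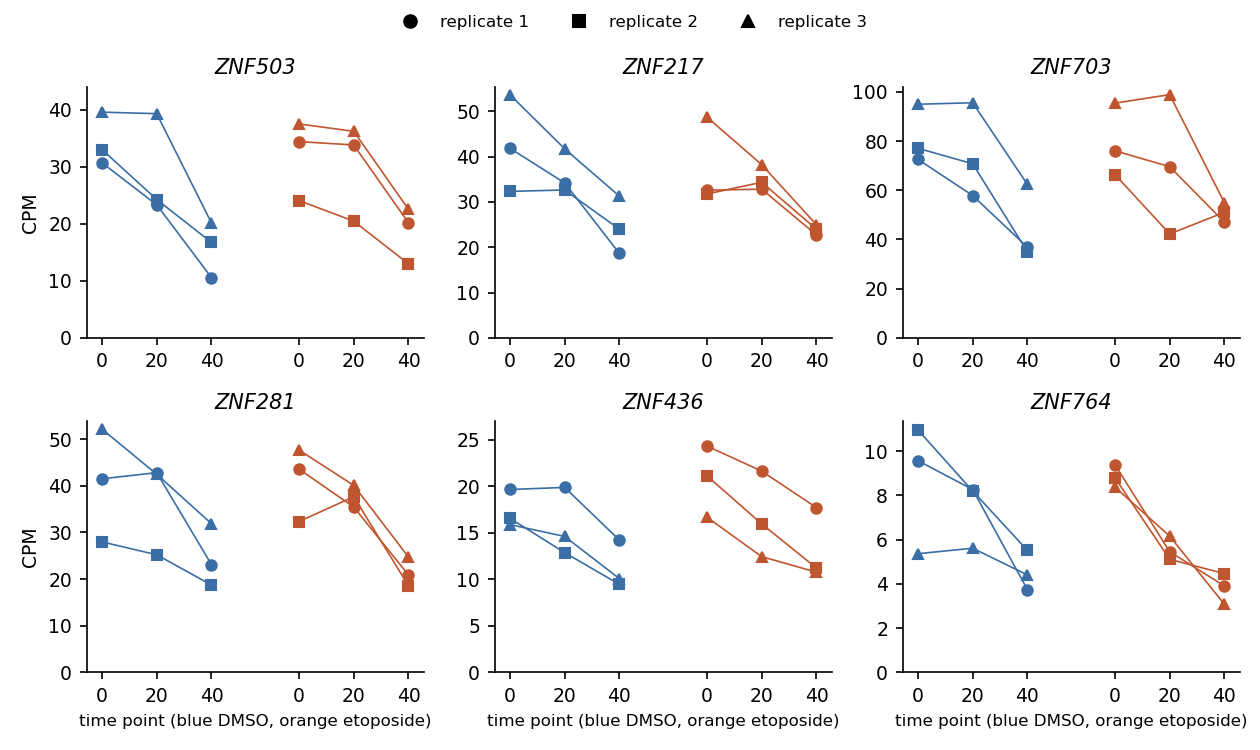
CPM of 6 genes in each of the 18 libraries (axis from 0), by arm and time point. Lines join libraries of the same replicate number and arm, blue for DMSO and orange for etoposide. In ZNF503 the libraries of time point 40 span 10.6 to 20.1 CPM with DMSO, against 30.7 to 39.5 at time point 0.

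Of the 12 genes of chromatin complexes, ZNF217 and ZNF281 fell in both arms in the edgeR fit with the block. In that fit 1.21% of all genes were called lower with DMSO and 1.01% with etoposide. ZNF217 works with the CoREST-LSD1 corepressor and is amplified in breast cancer. ZNF217 (ENSG00000171940, chr20:53567065-53609907, minus strand) stood at 41.8, 32.3 and 53.6 CPM at 0, 34.2, 32.6 and 41.7 at 20, and 18.6, 23.98 and 31.2 at 40 in DMSO replicates 1, 2 and 3. With etoposide, ZNF217 stood at 32.6, 31.7 and 48.7 CPM at 0, 32.8, 34.3 and 38.2 at 20, and 22.7, 23.97 and 24.9 at 40 in the same order. The libraries of 0 and 40 did not overlap in either arm. For ZNF217 the log2 change from 0 to 40 was −0.79 (SE 0.21, adjusted p = 0.238 with edgeR, and 0.00136 with the block) with DMSO. With etoposide, ZNF217 had −0.63 (SE 0.21, adjusted p = 0.826 with edgeR, and 0.0261 with the block).

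ZNF281 is a Krüppel-type factor of stem cells. ZNF281 (ENSG00000162702, chr1:200404940-200410056, minus strand) stood at 41.5, 27.97 and 52.2 CPM at 0, 42.8, 25.2 and 42.5 at 20, and 23.1, 18.7 and 31.9 at 40 in DMSO replicates 1, 2 and 3. With etoposide, ZNF281 stood at 43.6, 32.3 and 47.7 CPM at 0, 35.4, 37.7 and 40.1 at 20, and 20.9, 18.6 and 24.7 at 40 in the same order. The libraries of 0 and 40 overlapped with DMSO and did not with etoposide, and each replicate number was lower at 40. For ZNF281 the log2 change from 0 to 40 was −0.72 (SE 0.25, adjusted p = 0.59 with edgeR, and 0.0062 with the block) with DMSO. With etoposide, ZNF281 had −0.91 (SE 0.25, adjusted p = 0.357 with edgeR, and 0.00061 with the block). The other 10 chromatin genes were not called. Among them, ZNF532, ZNF592 and ZNF687, which act with ZMYND8, had log2 changes of 0.23, 0.26 and −0.10 with DMSO, and −0.02 for ZNF592 and 0.00 for the others with etoposide. The SUMO ligase ZNF451 had −0.10 and −0.33, and ZNF644, a partner of the H3K9 methyltransferase G9a, −0.06 and −0.28.

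Of 12 sequence-specific activators and repressors, ZNF668 alone was called, and only with DMSO, in the edgeR fit with the block. In that fit 1.21% of all genes were called lower with DMSO and 1.01% with etoposide, so 1 gene of a short list does not set the role apart. ZNF668 is linked to the DNA damage response. ZNF668 (ENSG00000167394, chr16:31060843-31074320, minus strand) stood at 20.9, 19.4 and 17.4 CPM at 0, 18.02, 19.3 and 19.5 at 20, and 11.4, 11.03 and 11.7 at 40 in DMSO replicates 1, 2 and 3. With etoposide, ZNF668 stood at 14.4, 16.7 and 16.6 CPM at 0, 18.1, 11.9 and 17.5 at 20, and 15.7, 13.9 and 15.9 at 40 in the same order. The libraries of 0 and 40 did not overlap with DMSO and overlapped with etoposide. For ZNF668 the log2 change from 0 to 40 was −0.74 (SE 0.16, adjusted p = 0.0542 with edgeR, and 0.00881 with the block) with DMSO. With etoposide, ZNF668 had −0.03 (SE 0.16, adjusted p = 1.0 with edgeR, and 0.996 with the block). The difference of the changes, etoposide minus DMSO, was 0.71 (SE 0.22, unadjusted p = 0.00561 with edgeR), the smallest p of the 202 in that comparison, with an adjusted p of 1.0 without and 0.991 with the block. Exons on the opposite strand cover 36.5% of ZNF668, so its counts may hold reads of another gene. The other 11 include ZNF24 at −0.26 and −0.39, ZNF202, a repressor of lipid genes, at −0.18 and −0.43, and ZNF143, the activator of small nuclear RNA genes, at 0.03 and −0.17 (log2 change, DMSO then etoposide).

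Of 10 genes with RNA, ribosome or spindle roles, edgeR called 0 in either arm in either fit, and DESeq2 and limma-voom 0. Of all genes, edgeR with the block called 1.21% lower with DMSO and 1.01% with etoposide. DESeq2 called 0.765% and 0.482% of all genes, and limma-voom 0.36% and 0.219%. At such shares 0 of 10 does not differ from the background. ZNF830, a spliceosome-associated protein, stood at 12.5 ± 2.02 CPM at 0 and 8.22 ± 0.39 at 40 with DMSO, and at 13.5 ± 0.96 and 8.63 ± 0.71 with etoposide (SD, n = 3). The libraries of 0 and 40 did not overlap in either arm. Its log2 changes were −0.59 and −0.62 (SE 0.21 each, adjusted p = 0.618 and 0.826 with edgeR, and 0.188 and 0.146 with the block). ZNF622 and ZNF593, which act in maturation of the large ribosomal subunit, had −0.36 and −0.03 with DMSO, and −0.02 and −0.30 with etoposide. ZNF598, the ligase that senses collided ribosomes, had −0.20 and 0.07. ZNF207, a kinetochore and spindle protein, stood at 185.1, 169.4 and 172.5 CPM at 0 and 209.1, 185.4 and 196.7 at 40 with DMSO. All of 40 lay above all of 0, by a narrow margin, and the log2 change was 0.18 (SE 0.11, adjusted p = 1.0 with edgeR, and 0.668 with the block).

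ZNF764, which carries a KRAB box and lies among other ZNF genes, fell in both arms in the fit with the block. ZNF764 (ENSG00000169951, chr16:30553764-30558498, minus strand) stood at 9.57, 10.96 and 5.36 CPM at 0, 8.27, 8.20 and 5.61 at 20, and 3.74, 5.51 and 4.40 at 40 in DMSO replicates 1, 2 and 3. With etoposide, ZNF764 stood at 9.39, 8.79 and 8.38 CPM at 0, 5.45, 5.11 and 6.16 at 20, and 3.90, 4.46 and 3.08 at 40 in the same order. The libraries of 0 and 40 overlapped with DMSO, where replicate 3 was low at 0, and did not with etoposide. For ZNF764 the log2 change from 0 to 40 was −0.91 (SE 0.25, adjusted p = 0.274 with edgeR, and 0.0457 with the block) with DMSO. With etoposide, ZNF764 had −1.18 (SE 0.26, adjusted p = 0.0952 with edgeR, and 0.00425 with the block). ZNF436, without a KRAB box by the pattern, also fell in both arms in that fit. ZNF436 (ENSG00000125945, chr1:23359448-23369442, minus strand) stood at 19.7, 16.6 and 15.9 CPM at 0, 19.9, 12.9 and 14.6 at 20, and 14.2, 9.45 and 10.1 at 40 in DMSO replicates 1, 2 and 3. With etoposide, ZNF436 stood at 24.3, 21.1 and 16.7 CPM at 0, 21.6, 15.96 and 12.4 at 20, and 17.7, 11.2 and 10.8 at 40 in the same order. Its libraries of 0 and 40 overlapped with etoposide and did not with DMSO. For ZNF436 the log2 change from 0 to 40 was −0.61 (SE 0.26, adjusted p = 0.947 with edgeR, and 0.0264 with the block) with DMSO. With etoposide, ZNF436 had −0.61 (SE 0.26, adjusted p = 1.0 with edgeR, and 0.0269 with the block).

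The remaining 3 passed with DMSO and not with etoposide in that fit, and their libraries of 0 and 40 did not overlap in either arm. ZNF408 (ENSG00000175213, chr11:46700818-46705912) is mutated in inherited retinal vascular disease. It stood at 21.9, 23.4 and 17.04 CPM at 0 and 9.54, 10.9 and 11.7 at 40 with DMSO, and at 22.99, 18.5 and 13.99 and then 10.1, 10.6 and 11.6 with etoposide. For ZNF408 the log2 change from 0 to 40 was −0.94 (SE 0.20, adjusted p = 0.0643 with edgeR, and 0.00762 with the block) with DMSO. With etoposide, ZNF408 had −0.75 (SE 0.20, adjusted p = 0.357 with edgeR, and 0.0726 with the block). ZNF669 (ENSG00000188295, chr1:247099962-247104372) stood at 4.99, 5.94 and 5.79 and then 2.25, 2.36 and 3.46 CPM with DMSO, and at 5.27, 3.94 and 3.89 and then 2.27, 2.18 and 2.53 with etoposide. Its log2 changes were −1.04 (SE 0.24, edgeR adjusted p = 0.104, and 0.0347 with the block) and −0.87 (SE 0.25, adjusted p = 0.402, and 0.169 with the block). ZNF398 (ENSG00000197024, chr7:149126416-149182802) stood at 14.04, 15.1 and 13.2 and then 9.45, 9.10 and 8.18 CPM with DMSO, and at 11.7, 12.2 and 15.03 and then 9.99, 9.03 and 9.56 with etoposide. Its log2 changes were −0.65 (SE 0.15, edgeR adjusted p = 0.1, and 0.0312 with the block) and −0.41 (SE 0.15, adjusted p = 1.0, and 0.432 with the block). Of the 10 genes called with the block, the mean at 20 lay between those at 0 and 40 in 10 with DMSO and in 9 with etoposide. ZNF408 with etoposide stood at 106% of its mean at 0. The 10 were picked by their fall from 0 to 40 with DMSO, so the order of those ends was fixed there. The share over all genes is not given here, so these counts are not read as a result. With etoposide some steps were small, as ZNF668 stood at 99.6% of its mean at 0 by 20 and at 95.6% by 40. ZNF669 with etoposide stood at 99.6% by 20.

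How far the calls rest on single libraries differed by gene. Leaving out each of the 6 libraries of a comparison in turn, with the block kept, left ZNF217 (edgeR adjusted p 0.000392 to 0.0189), ZNF503 (0.00058 to 0.0137) and ZNF703 (0.00455 to 0.0362) called in all 6 with DMSO. With etoposide it left ZNF281 (0.00308 to 0.0127) and ZNF764 (0.0101 to 0.0423) called in all 6. With DMSO, ZNF281 was called in 4 of 6, ZNF408 in 3, ZNF398, ZNF668 and ZNF669 in 2, and ZNF436 and ZNF764 in 1. With etoposide, ZNF217 (0.0515 to 0.319) and ZNF436 (0.0567 to 0.244) were called in 0 of 6. Without DMSO replicate 2 of time point 0, 4 genes were called with DMSO and not 10, namely ZNF217, ZNF281, ZNF503 and ZNF703. Without replicate 2 of time point 40, 3 were called, and without replicate 1 or 3 of time point 40, 6 each. With etoposide, leaving out 1 library left 2 or 3 genes called in place of 4. Without all libraries numbered 3, the fit with the block called 2 of the 202 with DMSO and 0 with etoposide. The 2 were ZNF703 (edgeR adjusted p = 0.0215) and ZNF408 (0.0352), while ZNF503 (0.0571) and ZNF217 (0.0869) no longer passed. The share of all genes called in these fits with libraries left out is not given here.

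Between the arms, 119 of the 202 genes (58.9%) were negative in both, against 26.0% of all genes tested, and 12 (5.94%) were positive in both, against 28.0%. Over the 202 genes the changes in the arms correlated at Spearman 0.39 and Pearson 0.44, and over all genes at 0.13 and 0.29. These describe genes, which share libraries and are not replicates. The highest DMSO value was that of ZNF391, at 0.79 (SE 0.30, adjusted p = 0.762 with edgeR, and 0.432 with the block), from 1.56, 1.83 and 1.16 CPM at 0 and 2.995, 2.10 and 2.73 at 40, and with etoposide it had −0.10. The lowest etoposide value was that of ZNF594, at −1.48 (SE 0.43, adjusted p = 0.465 with edgeR, and 0.0774 with the block), from 7.18, 3.23 and 4.84 CPM at 0 and 1.998, 1.76 and 1.54 at 40. The difference of the changes, etoposide minus DMSO, had a median of −0.04 over the 202 genes and −0.01 over all genes. There edgeR called 0.0% of all genes without the block and 0.0% with it. DESeq2 and limma-voom called 0 of the 202 and 0.0% of all genes. An unadjusted p under 0.05 was found in 2 of the 202 (0.99%, against 1.34% of all genes), and in 5 with the block (2.48%, against 3.42%). The lower median with etoposide was thus not shown to differ from that with DMSO.

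**Figure D4:**
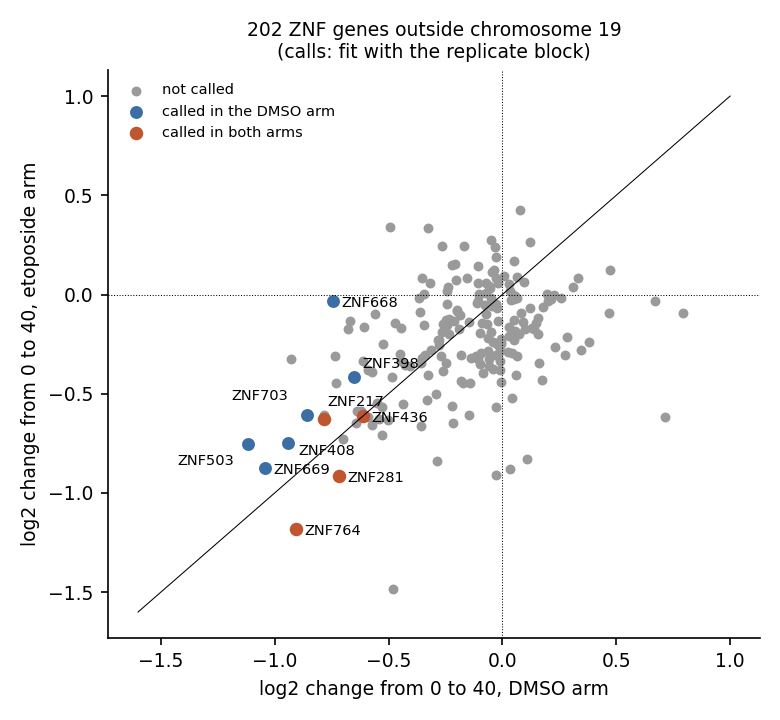
Log2 change from 0 to 40 in the DMSO arm (horizontal) against the etoposide arm (vertical), fit without the block, for the 202 genes. Colour marks calls in the fit with the block, and the line is equality. Of 202 points 119 lie in the lower left part and 12 in the upper right, and ZNF668 lies at −0.74 and −0.03.

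Etoposide against DMSO at the same time point gave median differences of 0.04 at 0, −0.03 at 20 and 0.01 at 40 (log2, etoposide minus DMSO). edgeR called 0 of the 202 at each time point without and with the block. Of all genes it called 0.0% at 0 and 0.0% at 20 in both fits, and at 40 0.0% without and 0.00705% with the block. At an unadjusted p under 0.05 there were 2, 1 and 3 of the 202 at 0, 20 and 40 (0.99%, 0.495% and 1.49%, against 2.66%, 0.761% and 0.98% of all genes). With the block there were 6, 3 and 8 (2.97%, 1.49% and 3.96%, against 6.22%, 2.5% and 3.51%). DESeq2 called 0 of the 202 at each, against 0.0213%, 0.0% and 0.00709% of all genes at 0, 20 and 40. By limma-voom it was 0 of the 202 and 0.0% of all genes at each. The smallest p without the block belonged to ZNF391 (0.75, SE 0.30) at 0, ZNF143 (−0.29, SE 0.13) at 20 and ZNF668 (0.41, SE 0.16) at 40. With the block they belonged to ZNF532 (0.31, SE 0.12) at 0, ZNF770 (0.29, SE 0.12) at 20 and ZNF273 (−0.89, SE 0.33) at 40.

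By time point 20 the median log2 change was −0.02 with DMSO, with 107 of 202 negative (52.97%, against 51.06% of all genes), and −0.09 with etoposide, with 143 negative (70.79%, against 50.97%). Within replicate numbers 1, 2 and 3 the DMSO medians were 0.07, −0.04 and −0.04, so that replicate 1 went the other way, and the etoposide medians −0.10, −0.04 and −0.14. edgeR called 0 of the 202, and 0.0% of all genes, without and with the block in each arm. At an unadjusted p under 0.05 there were 3 in each arm (1.49%, against 1.4% of all genes with DMSO and 1.0% with etoposide), and 7 in each with the block (3.47%, against 2.76% and 2.73%). DESeq2 and limma-voom called 0 of the 202, and 0.0% of all genes, in each arm. The smallest p belonged to ZNF398 (−0.37, SE 0.15) and ZNF189 (−0.40, SE 0.16) with DMSO, and to ZNF764 (−0.65, SE 0.25) and ZNF789 (−0.56, SE 0.22) with etoposide.

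By protein features, the 80 genes with a KRAB box had median log2 changes from 0 to 40 of −0.20 with DMSO and −0.30 with etoposide, and the 120 without had −0.07 and −0.16. With the block, 3 of the 80 and 7 of the 120 were called lower with DMSO, where 1.21% of all genes were. With etoposide 1 of the 80 and 3 of the 120 were called lower, where 1.01% of all genes were. The 1 of 80 is close to that share. By fingers the medians were −0.04 and −0.06 for 46 genes with 4 or fewer, −0.17 and −0.25 for 49 with 5 to 8, −0.14 and −0.25 for 61 with 9 to 12, and −0.21 and −0.16 for 44 with 13 or more. By promoter, the 63 genes with CCGGAAG had −0.15 and −0.24, and the 109 without it −0.10 and −0.17. These differences between parts of the family were not tested. A list of 27 tested genes held the corepressor that KRAB recruits and other silencing factors, such as EHMT2, SUV39H1 and TASOR. Their medians were 0.02 and 0.04, and edgeR called 0 of them in either arm in either fit. With 1.21% and 1.01% of all genes called lower with the block, 0 of 27 does not differ from the background. TRIM28, the scaffold of that corepressor, stood at 371 ± 21.0 CPM at 0 and 358 ± 23.6 at 40 with DMSO. With etoposide TRIM28 stood at 351 ± 9.72 and 373 ± 10.8 CPM (SD, n = 3).

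Gene length, base composition and level varied together with the change. Spearman's rho of the change with the length from start to end was 0.41 with DMSO and 0.14 with etoposide over the 202 genes, against 0.28 and −0.03 over all genes tested. The 51 genes up to 14.2 kb had medians of −0.25 and −0.30, against −0.08 and 0.01 for 3929 other genes tested in the same range of lengths. They held 8 of the 10 DMSO calls with the block (15.7% of the 51), and of the 3929 other genes 3.36% were called lower, the highest share of the 4 ranges of length there too. The 51 genes of 49.3 kb and more had −0.01 and −0.17, against 0.06 and −0.01 for 4739 other genes, of which 0.106% were called lower with DMSO. For the A and T content of the coding transcript chosen for each gene, rho was 0.20 with DMSO and −0.22 with etoposide. The sign thus differed between the arms, as it did over all genes (0.32 and −0.34). For the number of AUUUA elements in the 3′ UTR, a motif of unstable messages, rho was 0.16 and −0.15, against 0.22 and −0.27 over all genes. The 51 genes of lowest mean CPM had medians of −0.15 and −0.28, against −0.06 and −0.05 for 2319 other genes tested at the same levels. The 51 of highest had −0.05 and −0.08, against 0.03 and 0.02 for 6349 other genes. The part of length, composition and level in the changes was not tested.

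**Figure D5:**
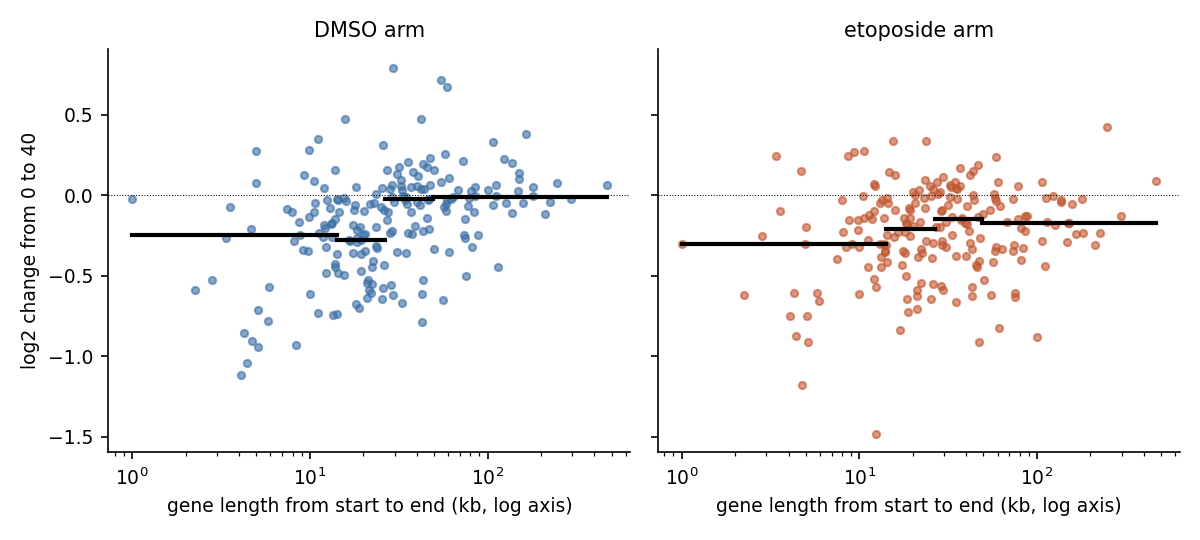
Log2 change from 0 to 40 against the length of the gene from start to end (kb, log axis) for the 202 genes, in the DMSO arm (left) and the etoposide arm (right). Points are genes and bars the medians of 4 groups of 50 or 51 genes by length, which are −0.25, −0.28, −0.03 and −0.01 with DMSO and −0.30, −0.21, −0.15 and −0.17 with etoposide, from short to long.

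By location, 8 clusters held 5 to 12 of the 202 genes with less than 1 Mb between neighbours. The 12 on chromosome 16 (30378106 to 31917357), with ZNF764 and ZNF668, had medians of −0.34 with DMSO and −0.16 with etoposide. The 6 on chromosome 16 (3112560 to 3443553) had −0.26 and −0.19, with all 6 negative in both arms. The 6 on chromosome 8 (144720907 to 144950888) had −0.33 with DMSO, all 6 negative, and 0.01 with etoposide, 2 negative. The 7 on chromosome 7 (64307459 to 65401135) had −0.01 and −0.41, and the 6 on chromosome 3 (44431720 to 44737083) −0.05 and −0.31. The 11 on chromosome 7 (149069643 to 150398631) had −0.07 and −0.08, the 7 on chromosome 12 (132918308 to 133214831) −0.10 and −0.25, and the 5 on chromosome X (46497727 to 48071658) 0.06 and −0.24. Differences between clusters or between the arms within a cluster were not tested. For comparison, the 183 ZNF genes of chromosome 19 had medians of −0.17 and −0.25, with 131 and 152 negative, and the 27 ZSCAN, ZKSCAN and ZFP genes outside chromosome 19 −0.11 and −0.28, with 23 and 25 negative. The differences between these lists were not tested.

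In 2 of the 202 genes, both on chromosome 8, the mean over replicate 3 was below 0.4 of that over replicates 1 and 2, and in none was it above 2.5 times it. ZNF707, a KRAB gene (chr8:143684452-143713898), averaged 1.68 CPM over the libraries of replicates 1 and 2 (0.468 to 2.56) and 0.0799 over the 6 of replicate 3 (0 to 0.21), with 0 counts in 3 libraries. ZNF251 (chr8:144720907-144756417) averaged 2.13 CPM (1.25 to 2.85) and 0.324 (0 to 1.01), with 0 counts in 2 libraries. Their group means therefore mix replicates at different levels, in both arms and at every time point.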

How the data were processed

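The authors deposited raw counts per gene for each library. They name bcl2fastq, HISAT2, featureCounts and GRCh38, per the submitters' processing notes, while versions, annotation release and strand setting are unstated in the sources. Libraries used a TruSeq Stranded mRNA kit, as the labels' protocols state. Of 58051 Ensembl identifiers, 57447 matched GENCODE release 29 and 56948 received a symbol. The genes and lists were chosen with earlier results of these data known. Counts were tested with edgeR 4.0.16 (R 4.3.3, robust quasi-likelihood test, TMM factors 0.978 to 1.02, filterByExpr, 14186 genes holding 99.839% of counts) in one model of 6 groups, with Benjamini-Hochberg adjustment over all tested genes. The comparisons were 0 to 20 and 0 to 40 in each arm, etoposide against DMSO at each time point, and their interaction at 40. Alternatives were the replicate block, other scalings, DESeq2 1.42.0, limma-voom 3.58.1, no filter, the compared groups alone, left-out libraries and other CPM minimums. The numbers in the titles were taken to pair the samples. This pairing is inferred from these same data, where all 45 same-numbered pairs correlated above the minimum of 0.1. The labels speak of independent replicates without saying what was independent, so p-values measure the spread between these samples. Only the fit without the block was tried on simulated counts, for the change from 0 to 40 with DMSO. Those counts had a single fixed spread and no replicate effect, so the trial does not bear on the calls made with the block. Genes were named by a rule that takes, from 0 to 40, the 10 smallest p among falls and 5 among rises in each fit, the 4 smallest in other comparisons, the highest levels, the role lists, the edges of the minimum and genes with 0 counts in 3 libraries. Genes named in the text beyond it were chosen after their values were seen. The length of a gene is from start to end, and CPM per kb uses the union of its exons. Where a gene has p-values of both fits, its log2 change and SE are those of the fit without the block. The SE is the size of the change divided by the square root of the F statistic.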

Additional observations from a re-analysis of the deposited data

How the results depend on the processing

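Without the block, genes called in the change from 0 to 40 with DMSO numbered 0, and 10 with the replicate block, 4 with DESeq2, 2 with number 3 left out of all groups and 1 with library size only. With etoposide they numbered 0, and 4 with the replicate block and 1 with DESeq2. Of all genes tested with DMSO, 0.423% were called without the block, 1.22% with it and 0.765% with DESeq2. With etoposide these shares were 0.204%, 1.01% and 0.482%. For the other settings the share over all genes is not given here, so their counts are not read as results about the 202 genes. Leaving out 1 library without the block gave 0 to 2 with DMSO, and the median log2 change there ranged from −0.1893 to −0.083. Further settings of the block were chosen after seeing the data. With them the DMSO count was 5 with housekeeping scaling and 2 with number 3 left out of all groups, and 3 to 7 without 1 library each. The etoposide count was 0 with number 3 left out of all groups, and 2 to 3 without 1 library each. With housekeeping scaling and the block, the edgeR adjusted p with DMSO was 0.14 for ZNF281, 0.0851 for ZNF436 and 0.159 for ZNF764. With etoposide the edgeR adjusted p was 0.0744 for ZNF217, while ZNF281 (0.0116), ZNF764 (0.0121) and ZNF436 (0.0313) stayed called in that arm. Thus none of the 4 genes called in both arms stayed called in both under that scaling. Without genes whose exons overlap others (same strand over 10%, opposite strand over 20%) 9 and 4 calls were found. The cause of these shifts was not tested, but each fit without a library has fewer samples. Housekeeping scaling moved the median over all genes by 0.13 to 0.12 in etoposide minus DMSO at 0, by −0.10 to −0.11 in the interaction, and to −0.08 from 0 to 40 and −0.10 from 0 to 20 with etoposide. With it the median of the 202 genes was −0.28 from 0 to 40 and −0.20 from 0 to 20 with etoposide, 0.16 in etoposide minus DMSO at 0 and −0.14 in the interaction, and these are to be read against those medians over all genes. With etoposide, ZNF532 went to 0.0061 and 0.0067 under DESeq2-type size factors and DESeq2, and ZNF664 to −0.0296 with library size only and −0.0811 with housekeeping scaling. Of all the alternatives of a count or median, 284 kept their side and direction, 16 moved, 7 were stronger and 1 was weaker. At these depths 3 counts stand for 0.259 to 0.377 CPM, which limits the precision of the genes near 1 CPM.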
